A study of Homo sapiens with 12 samples.

Results

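Interferon-stimulated genes are the genes that a cell switches on after an interferon binds its receptor. A list of 39 of them, given by name and not by a threshold on these data, was followed by RNA-seq in 143B, a human cell line established from an osteosarcoma. Of the 39, 38 had a line in the deposited tables of 24180 gene symbols and 35 had enough counts to be tested. There were 12 libraries in 4 groups of 3, which the sample titles call M-BSG-Hot, M-BSG, BSG and NC. The titles tie M-BSG-Hot to the name 5-MNP-BSG (+), M-BSG to 5-MNP-BSG, BSG to BSG and NC to the control. The study is about a bioactive borosilicate glass combined with moderate magnetic heating of tumour cells, so the groups ask how the cells respond to the glass, to its magnetic form and to heating of that form, as far as the names allow. All 4 groups were the same cell line with the genotype given as WT, and the same treatment text, naming the magnetic material and an alternating magnetic field, stands on every sample, the NC samples included. The labels therefore do not say which material, field, dose or exposure time each group had. Nothing in them says that the 3 samples of a group were separate cultures, so the p-values rest on a spread that could be purely technical.

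Type I and type III interferons are secreted proteins made after nucleic acid sensors detect viral or misplaced RNA or DNA. Their receptors activate a complex of STAT factors with IRF9, which binds an element called the ISRE (interferon-stimulated response element) in the promoters of its target genes. The targets include RNA-binding and RNA-cleaving antiviral proteins, proteins that block virus entry, the ubiquitin-like modifier ISG15 with its enzymes, and parts of the antigen presentation machinery. Many of them keep a basal level in unstimulated tumour cells.

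The libraries held 34434993 to 38163152 counts. At this depth a count of 0 allows up to 3 counts, or 0.0786 to 0.0871 CPM (counts rescaled to the same total in every library), a limit that covers counting error only. BSG 1, M-BSG 1 and M-BSG-Hot 3 stood apart within their groups: ribosomal protein genes took 11.3%, 9.95% and 9.86% of their counts, and their levels fell with gene length, by 0.18, 0.08 and 0.07 on the log2 scale per doubling of length. Of the 9 mesenchymal and bone markers searched, 8 were in the tables, with a summed level of 4045 to 4802 CPM, nearly all of it from VIM (vimentin) and SPARC. The bone-forming markers SP7 and BGLAP were close to absent, with 4 and 16 counts summed over all libraries. Of 5 epithelial markers searched, KRT18 stood at 860 to 1188 CPM, KRT8 at 318 to 404 CPM and EPCAM at 14.2 to 20.8 CPM. KRT19 and CDH1 were close to absent, with 84 and 21 counts summed over all libraries. Of 3 markers of plasmacytoid dendritic cells, a main source of type I interferon in blood, 1 was in the tables, LILRA4 with 1 count.

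The promoters show what the listed genes share in sequence. In a RefSeq table of promoters (GRCh38.p14, 250 bases before to 50 after each gene's start), 29 of the 39 genes had an entry. The core of the ISRE was searched as GAAANNGAAA on both strands, overlapping matches included. It was present in 19 of the 29 promoters, 65.5%, against 3.65% of all 27305 promoters in the table. The core of the GAS element, the interferon-gamma activated site, was searched as TTCNNNGAA on both strands and was present in 7 of the 29, 24.1%, against 7.88% of all promoters. Some GAS matches share bases with an ISRE match. A match is a run of letters and not a shown binding site. The promoters below are those of ISG15 and IFIT1, often used as readouts of interferon signalling, of OAS3, of IFI44, and of SP100 and STAT2. IFI44, SP100 and STAT2 changed in BSG cells, as described further on. Capitals mark every match to the ISRE core; they overlap in ISG15, and SP100 and STAT2 have none. All are written 5′ to 3′ on the gene's own strand, at chr1:1013247-1013546 (+) for ISG15, chr10:89392373-89392672 (+) for IFIT1, chr12:112938224-112938523 (+) for OAS3, chr1:78649539-78649838 (+) for IFI44, chr2:230415951-230416250 (+) for SP100 and chr12:56360058-56360357 (-) for STAT2.
ISG15: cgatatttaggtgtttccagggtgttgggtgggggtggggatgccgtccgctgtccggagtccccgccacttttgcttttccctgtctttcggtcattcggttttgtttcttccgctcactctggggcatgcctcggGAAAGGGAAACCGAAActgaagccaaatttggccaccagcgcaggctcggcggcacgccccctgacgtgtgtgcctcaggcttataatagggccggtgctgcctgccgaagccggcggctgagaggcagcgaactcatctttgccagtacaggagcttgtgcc
IFIT1: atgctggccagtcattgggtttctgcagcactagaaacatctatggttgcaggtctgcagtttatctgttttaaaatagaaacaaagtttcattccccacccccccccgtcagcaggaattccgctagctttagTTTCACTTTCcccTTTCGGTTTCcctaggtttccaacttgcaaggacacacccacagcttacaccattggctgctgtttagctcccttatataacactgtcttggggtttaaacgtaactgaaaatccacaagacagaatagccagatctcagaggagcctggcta
OAS3: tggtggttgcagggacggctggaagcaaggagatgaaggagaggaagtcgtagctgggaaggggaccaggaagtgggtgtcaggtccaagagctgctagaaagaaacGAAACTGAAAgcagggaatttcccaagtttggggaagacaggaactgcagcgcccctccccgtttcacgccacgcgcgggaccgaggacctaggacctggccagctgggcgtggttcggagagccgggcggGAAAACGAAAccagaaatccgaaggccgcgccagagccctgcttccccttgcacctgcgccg
IFI44: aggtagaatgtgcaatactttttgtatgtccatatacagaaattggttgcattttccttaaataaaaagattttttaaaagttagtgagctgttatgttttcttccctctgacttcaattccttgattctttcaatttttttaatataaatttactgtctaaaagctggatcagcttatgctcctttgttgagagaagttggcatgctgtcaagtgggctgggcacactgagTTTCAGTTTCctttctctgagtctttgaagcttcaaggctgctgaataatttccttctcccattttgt
SP100: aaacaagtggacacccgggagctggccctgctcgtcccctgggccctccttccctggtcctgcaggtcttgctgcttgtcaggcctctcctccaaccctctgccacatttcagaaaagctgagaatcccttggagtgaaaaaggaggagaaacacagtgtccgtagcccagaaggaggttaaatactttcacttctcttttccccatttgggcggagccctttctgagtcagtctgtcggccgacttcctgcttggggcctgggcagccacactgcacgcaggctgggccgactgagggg
STAT2: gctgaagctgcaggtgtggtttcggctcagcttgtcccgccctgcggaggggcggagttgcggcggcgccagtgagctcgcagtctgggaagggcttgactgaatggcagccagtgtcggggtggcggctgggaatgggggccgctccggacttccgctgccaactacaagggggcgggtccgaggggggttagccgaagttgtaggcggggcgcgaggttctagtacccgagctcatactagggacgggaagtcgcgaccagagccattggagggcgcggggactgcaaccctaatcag

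Levels of different genes are compared here in the deposited FPKM, which are counts divided by gene length and by the total of the library. IFITM3, a membrane protein that blocks the entry of enveloped viruses, had the highest mean in NC cells, 316 ± 24.4 FPKM (SD, n = 3 here and below). B2M, the light chain of MHC class I, followed at 147 ± 6.88 FPKM, and IFITM2, a close relative of IFITM3, at 92.1 ± 5.82 FPKM. These 3 levels are separated by more than their spread. The ubiquitin ligase TRIM25, which acts on a viral RNA sensor, had 31.7 ± 1.36 FPKM, and IRF3, the factor that switches on interferon genes, had 30.9 ± 0.584 FPKM. These neighbours do not differ beyond their spread. ISG15, the ubiquitin-like modifier, was sixth at 20.3 ± 1.53 FPKM. Of the 38 genes in the tables, 2 had a mean of at least 100 FPKM in NC cells, 7 lay between 10 and 100 FPKM, 20 between 1 and 10 FPKM and 9 under 1 FPKM. Among tested genes the low end held OAS1, OASL, IFIT1, IFI27, MX1 and OAS2, all of them strongly inducible genes in other cells. Together the listed genes took 0.142% to 0.159% of the counts of a library.

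**Figure D1:**
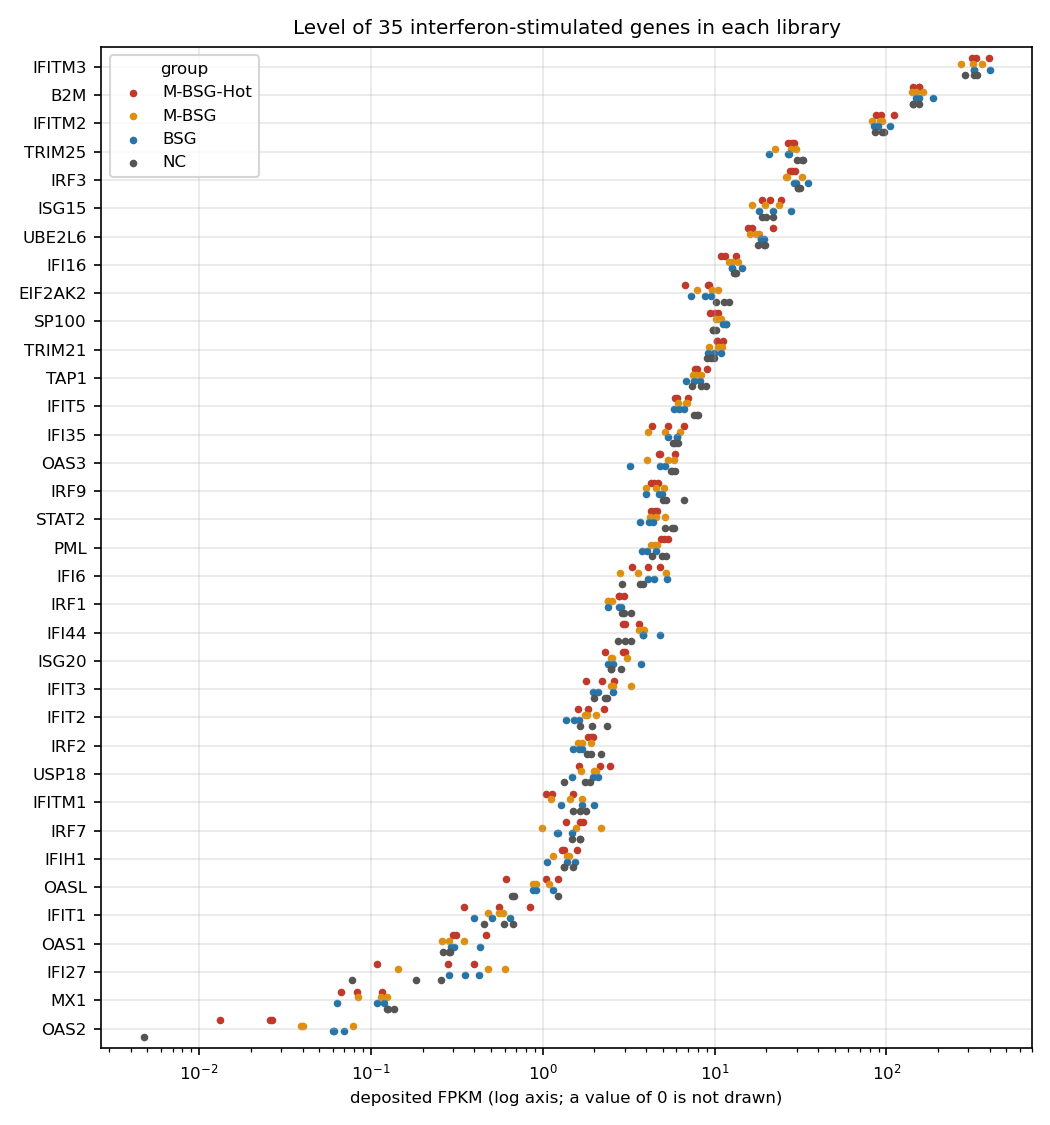
Deposited FPKM on a log axis for the 35 tested interferon-stimulated genes, ordered by their mean in NC cells; each point is 1 library, coloured by group. The groups lie close together for most genes on this axis, some without overlap of BSG and NC (IFIT5, TRIM25), and those of OAS2 at the bottom are the farthest apart (its NC values of 0 are not drawn).

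OAS2, a gene with almost no counts in NC cells, passed the test as higher in M-BSG and BSG cells. Because OAS2 cleared the filter on low counts only through the groups in which it was high, its calls are a description. It also passed in M-BSG-Hot cells, at an adjusted p of 0.0471 that was over 0.05 in 16 of 20 alternative analyses. IFI44 and SP100 were higher, and STAT2 lower, in BSG cells, each by less than 1.5-fold. The other 31 tested genes did not pass the test in any of 5 comparisons, which does not show that they were equal. The test was edgeR's quasi-likelihood test on the counts of all 15407 genes that passed a filter on low counts. Benjamini-Hochberg adjustment was over all of them within a comparison, and a gene is called where the adjusted p is under 0.05. Statements that the libraries of groups did not overlap describe the values only. The share of all genes without overlap was not computed, and not every member that shows such a separation is pointed out.

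In M-BSG-Hot against NC, 1 of the 35 genes was called (2.86%), against 4.91% of all genes tested, 1.4% higher and 3.51% lower. In M-BSG against NC it was again 1 of 35, against 6.35% of all genes, 3.22% higher and 3.13% lower. In BSG against NC, 4 of 35 were called (11.4%), 3 higher and 1 lower, against 11.7% of all genes, of which 5.5% were higher and 6.22% lower. The share of called members, OAS2 included, was thus at or below the share of all genes in each of these comparisons. The median log2 fold change of the 35 was 0.07 in M-BSG-Hot, 0.00 in M-BSG and 0.07 in BSG, beside 0.00, -0.01 and -0.02 over all genes. With BSG 1, M-BSG 1 and M-BSG-Hot 3 left out, 1, 1 and 6 members were called, EIF2AK2 in place of OAS2 in M-BSG-Hot. The share of all genes called in that setting is not given here, so these counts are not a result about the members. The median of the members in BSG was then -0.03, beside -0.02 over all genes.

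**Figure D2:**
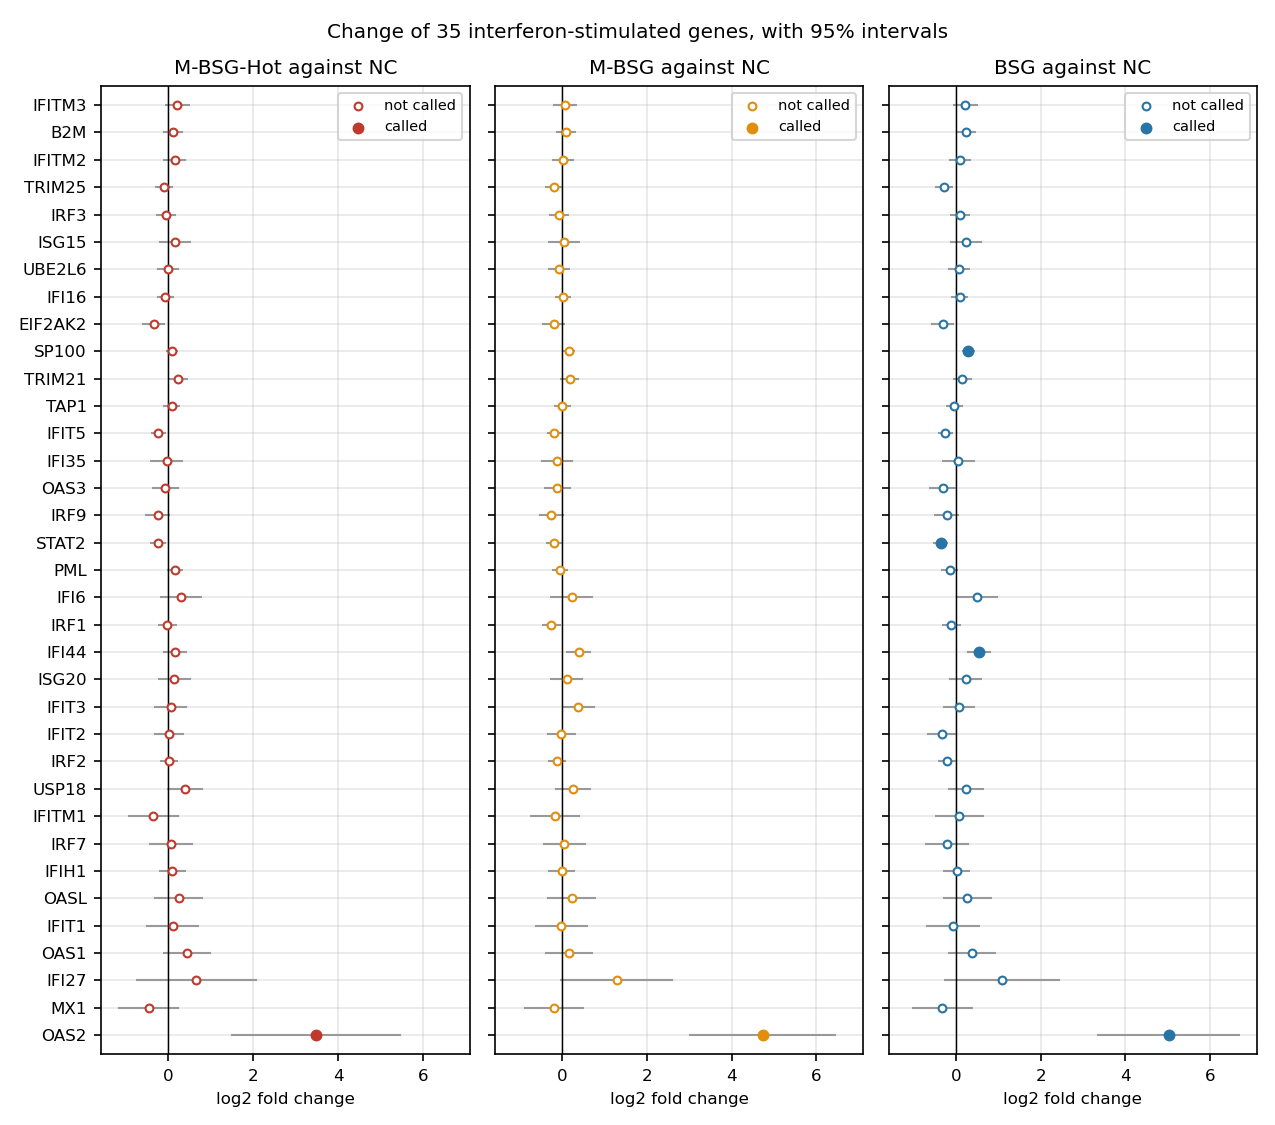
Log2 fold change against NC for the 35 tested genes in M-BSG-Hot, M-BSG and BSG (3 panels), with 95% intervals from the edgeR fit; filled points are called at an adjusted p under 0.05. Most intervals cross 0 and lie within 1 log2 unit of it; OAS2 at the bottom lies far to the right in all 3 panels.

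The intervals show what these data could still hide. The 95% interval of the log2 fold change lay wholly within 1 of 0, a change of less than 2-fold, for 32 of 35 genes in M-BSG-Hot, 33 in M-BSG and 32 in BSG against NC. The exceptions were OAS2 and IFI27 in all 3 comparisons and MX1 in M-BSG-Hot and BSG, all genes with low counts. Within 0.5 of 0 lay 21, 20 and 16 intervals in these comparisons.

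OAS2 belongs to the oligoadenylate synthetases, enzymes that answer double-stranded RNA by making the small messenger that activates the ribonuclease RNase L. Its raw counts were 3, 6 and 6 in M-BSG-Hot libraries, 9, 18 and 9 in M-BSG, 16, 14 and 14 in BSG, and 1, 0 and 0 in NC. Scaled by TMM, a normalisation of library totals, this was 0.135 ± 0.046 CPM in M-BSG-Hot, 0.324 ± 0.135 CPM in M-BSG and 0.397 ± 0.044 CPM in BSG. Every library of these groups was above every NC library, and the M-BSG-Hot libraries were below all M-BSG and BSG libraries, while M-BSG and BSG overlapped. The ratio of summed counts per total count over NC was 14.4 in M-BSG-Hot (exact 95% interval 2.22 to 607), 34.9 in M-BSG (5.88 to 1416) and 41.9 in BSG (7.15 to 1694), intervals of counting error only. By edgeR's quasi-likelihood test the adjusted p was 0.0471 in M-BSG-Hot, 0.00262 in M-BSG and 0.000987 in BSG. With no filter on low counts it was 0.0687 in M-BSG-Hot, 0.00198 in M-BSG and 0.000599 in BSG.

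The size of the OAS2 change is poorly known, because it rests on 1 count in NC. OAS2 passed the filter on low counts only through the groups in which it was high, so its place among the called genes is a description. In M-BSG-Hot the call was lost whenever any 1 library other than M-BSG 2 was left out, with an adjusted p of 0.0533 to 0.190 in those 11 edgeR fits. In M-BSG and BSG the call held without each single library. Per gene length, the highest OAS2 level of any library was 0.0789 FPKM, against lowest levels of 0.260 FPKM for OAS1 and 3.23 FPKM for OAS3. OAS3 averaged 34.5 ± 4.0 CPM in M-BSG-Hot, 33.7 ± 5.7 CPM in M-BSG, 29.5 ± 6.1 CPM in BSG and 36.5 ± 0.62 CPM in NC. All BSG libraries lay below all NC libraries, at a log2 fold change of -0.30 (edgeR adjusted p = 0.185), and OAS3 was not called in any group. OAS1 had log2 fold changes of 0.43, 0.16 and 0.38 in M-BSG-Hot, M-BSG and BSG against NC and was not called (edgeR adjusted p = 0.438, 0.828 and 0.341), although all M-BSG-Hot and BSG libraries lay above all NC libraries. OASL, a relative without the synthetase activity, was not called either. Of 9 immune cell markers searched, 5 were in the tables, and their summed level, almost all from CD14, was 0.678 to 0.754 CPM in M-BSG-Hot, 1.04 to 1.30 CPM in M-BSG, 1.74 to 2.02 CPM in BSG and 0.409 to 0.697 CPM in NC. This sum rose from NC through M-BSG-Hot and M-BSG to BSG, the order of the OAS2 means, with M-BSG-Hot and NC overlapping. The pan-leukocyte marker PTPRC was not among the 5, CD74 and HLA-DRA had 7 and 4 counts over all libraries, and the part of such cells in the OAS2 result was not tested. In bulk RNA, more cells with a transcript and more of it per cell cannot be told apart.

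**Figure D3:**
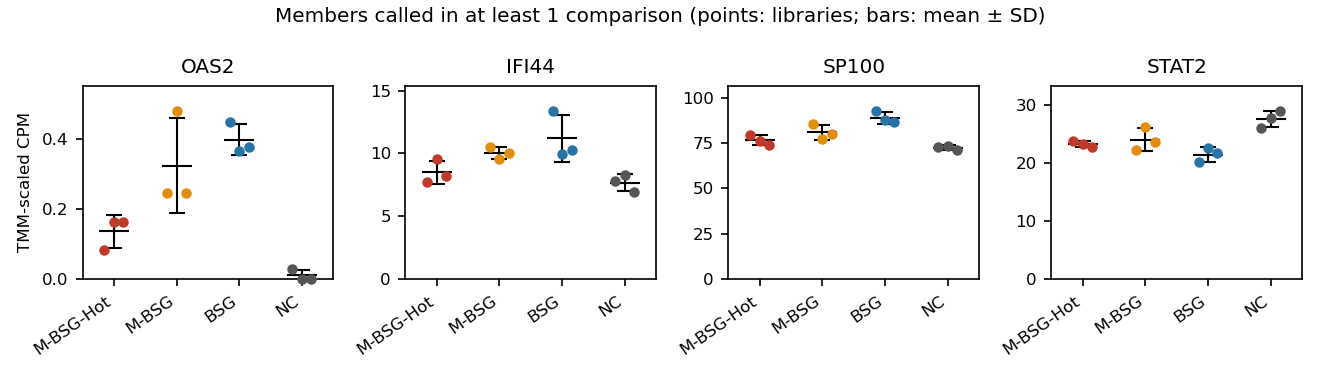
TMM-scaled CPM of OAS2, IFI44, SP100 and STAT2 in each library (points) with mean ± SD over 3 libraries (bars), groups M-BSG-Hot, M-BSG, BSG and NC from left to right, each panel from 0. OAS2 is near 0 in NC, IFI44 and SP100 are highest in BSG, and STAT2 is highest in NC.

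The other sensors and RNA-acting enzymes did not pass the test. EIF2AK2, the kinase PKR that stops translation on double-stranded RNA, had 94.5, 95.7 and 71.6 CPM in M-BSG-Hot, 84.0, 107 and 99.0 CPM in M-BSG, 79.3, 97.0 and 92.3 CPM in BSG and 102, 112 and 120 CPM in NC. M-BSG-Hot and BSG lay below NC without overlap. The log2 fold changes were -0.35, -0.20 and -0.31 (edgeR adjusted p = 0.145, 0.435 and 0.107). With BSG 1, M-BSG 1 and M-BSG-Hot 3 left out it was called lower in M-BSG-Hot and BSG, at adjusted p-values of 0.0492 and 0.0230. With the length trend removed, a correction described further on, it was called lower in M-BSG-Hot (0.0322). IFIH1, the sensor MDA5 of long double-stranded RNA, differed by 0.09, -0.01 and 0.02 on the log2 scale. ISG20, an exonuclease for single-stranded RNA, differed by 0.13, 0.11 and 0.23.

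IFI44 encodes a cytoplasmic protein induced by type I interferon. Its level was 7.75, 9.53 and 8.20 CPM in M-BSG-Hot, 10.5, 9.54 and 10.0 CPM in M-BSG, 13.4, 9.96 and 10.3 CPM in BSG, and 7.77, 8.26 and 6.94 CPM in NC. All M-BSG and BSG libraries were above all NC libraries, M-BSG-Hot overlapped NC, and BSG 1 was the highest library. The log2 fold change in BSG was 0.55 ± 0.13 (SE; edgeR adjusted p = 0.0174). The call was lost without BSG 1 (adjusted p = 0.0697) and without NC 3 (0.0867). In M-BSG the log2 fold change was 0.39 (adjusted p = 0.117), and 0.0448 without BSG 1. In M-BSG-Hot it was 0.15 (0.613).

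The remaining small interferon-induced proteins were not called. IFI6, a mitochondrial and endoplasmic reticulum protein that counters cell death and virus replication, had 3.18, 4.62 and 4.07 CPM in M-BSG-Hot, 5.12, 2.66 and 3.44 CPM in M-BSG, 5.35, 3.90 and 4.34 CPM in BSG and 3.43, 3.51 and 2.68 CPM in NC. All BSG libraries were above all NC libraries, at a log2 fold change of 0.50 (edgeR adjusted p = 0.162). IFI27, a mitochondrial protein and one of the most inducible genes of the response, had 100 counts in all. Its log2 fold changes were 0.66, 1.28 and 1.09 in M-BSG-Hot, M-BSG and BSG (edgeR adjusted p = 0.661, 0.30 and 0.258), with intervals that reach from under 0 to over 2. The NC libraries had 2, 7 and 5 of these counts, all below the filter's minimum count of 10. Like OAS2, IFI27 thus passed the filter only through the other groups, so its values are a description. IFI44L, the neighbour and paralog of IFI44, had 1 count over all 12 libraries, in M-BSG-Hot 1. Expression of XAF1, a pro-apoptotic target, was not analysed here.

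Among the transcription factors, STAT2 was lower in BSG cells. STAT2 is the subunit that carries the activation domain of the interferon-activated complex. It had 23.8, 23.3 and 22.7 CPM in M-BSG-Hot, 22.2, 26.2 and 23.6 CPM in M-BSG, 20.1, 22.6 and 21.7 CPM in BSG and 26.0, 27.7 and 28.9 CPM in NC. M-BSG-Hot and BSG lay below NC without overlap, and 1 M-BSG library overlapped NC. The log2 fold change in BSG was -0.36 ± 0.09 (SE; edgeR adjusted p = 0.0154). Without BSG 1, NC 2 or NC 3 the adjusted p was 0.0635, 0.0592 and 0.0781. In M-BSG-Hot the log2 fold change was -0.24 (adjusted p = 0.144), and in M-BSG -0.20 (0.224).

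The 5 other factors tested were not called. IRF9, the DNA-binding partner of STAT2, had 8.37, 7.62 and 8.20 CPM in M-BSG-Hot, 8.32, 7.01 and 8.95 CPM in M-BSG, 9.29, 8.39 and 7.17 CPM in BSG and 9.02, 11.3 and 8.65 CPM in NC. Its log2 fold changes of -0.26, -0.25 and -0.22 did not pass the test (edgeR adjusted p = 0.372, 0.367 and 0.297), although all M-BSG-Hot libraries lay below all NC libraries. IRF1, which responds strongly to interferon gamma, differed by -0.02, -0.26 and -0.10, and IRF7, the amplifier of interferon production, by 0.06, 0.05 and -0.20. IRF2, an antagonist of IRF1, differed by 0.02, -0.12 and -0.21, and IRF3 by -0.06, -0.07 and 0.10.

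SP100 and PML build the nuclear bodies that hold PML protein and silence viral genomes. SP100 had 79.5, 76.6 and 74.3 CPM in M-BSG-Hot, 85.7, 77.2 and 80.4 CPM in M-BSG, 92.9, 87.7 and 86.9 CPM in BSG and 73.1, 73.6 and 71.3 CPM in NC. Each group lay above NC without overlap, BSG the farthest. The log2 fold change was 0.29 ± 0.07 in BSG (SE; edgeR adjusted p = 0.0136), 0.16 in M-BSG (0.228) and 0.08 in M-BSG-Hot (0.594). In BSG the adjusted p was 0.0529 without NC 2, 0.0709 without NC 3 and 0.0511 with scaling by library totals alone. PML itself had 39.5 ± 2.1 CPM in M-BSG-Hot, 34.4 ± 0.68 CPM in M-BSG, 32.1 ± 2.6 CPM in BSG and 35.5 ± 3.6 CPM in NC. It was not called against NC in any group. SP100 overlaps an annotated long noncoding RNA and 2 pseudogenes, and no source used here says whether the counting respected strand.

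The IFIT genes encode proteins that bind viral RNA lacking a host-type cap. None of the 4 was called by edgeR in the main analysis. IFIT1 had 1.63, 2.58 and 4.05 CPM in M-BSG-Hot, 2.79, 2.58 and 2.21 CPM in M-BSG, 3.13, 1.83 and 2.40 CPM in BSG and 2.69, 2.03 and 3.00 CPM in NC. All groups overlapped, and the log2 fold changes were 0.10, -0.02 and -0.07, with 95% intervals from -0.53 to 0.72, -0.65 to 0.60 and -0.70 to 0.56. IFIT3, which stabilises IFIT1 on RNA, was highest in M-BSG, at 8.74, 6.69 and 6.46 CPM against 6.04, 4.96 and 5.78 CPM in NC, a log2 fold change of 0.38 (edgeR adjusted p = 0.275). IFIT5, the member that binds the widest range of RNA, was the closest to a call in BSG outside the called genes. It had 23.8, 28.1 and 25.3 CPM in M-BSG-Hot, 25.4, 27.4 and 27.6 CPM in M-BSG, 24.5, 24.8 and 27.3 CPM in BSG and 29.9, 30.6 and 31.0 CPM in NC. All 3 groups lay below NC without overlap, at log2 fold changes of -0.24, -0.19 and -0.25 (edgeR adjusted p = 0.132, 0.250 and 0.0615). In BSG it was called lower by DESeq2 (adjusted p = 0.0408), by limma on log2(FPKM + 1) (0.0311), and by edgeR with scaling by library totals alone (0.0293) or the length trend removed (0.0424). IFIT2 differed by 0.01, -0.02 and -0.32 on the log2 scale. The 4 IFIT genes overlap the annotated span of LIPA, a lysosomal lipase gene.

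Proteins that act at membranes or on virus entry were not called. IFITM3 had 203, 193 and 250 CPM in M-BSG-Hot, 225, 166 and 195 CPM in M-BSG, 257, 196 and 200 CPM in BSG and 200, 168 and 191 CPM in NC. The highest value of each of M-BSG-Hot, M-BSG and BSG was in the library of that group with the large ribosomal protein share. The log2 fold changes were 0.21, 0.07 and 0.22 (edgeR adjusted p = 0.475, 0.863 and 0.282). IFITM2 differed by 0.14, 0.02 and 0.10. IFITM2 and IFITM3 are near-identical copies, so reads may be split between them and their separate values are uncertain. MX1, a dynamin-like GTPase that traps viral particles, had 0.523 ± 0.14 CPM in M-BSG-Hot, 0.632 ± 0.12 CPM in M-BSG, 0.578 ± 0.18 CPM in BSG and 0.724 ± 0.033 CPM in NC. Its log2 fold changes were -0.47, -0.20 and -0.33 (edgeR adjusted p = 0.523, 0.829 and 0.529).

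BST2 and MX2 had too few counts for the filter. BST2, or tetherin, which holds budding virus at the cell surface, had 3, 1 and 10 counts in M-BSG-Hot, 13, 8 and 3 in M-BSG, 10, 26 and 10 in BSG and 6, 5 and 1 in NC. All BSG libraries were above all NC libraries. With no filter the edgeR adjusted p in BSG was 0.124. MX2, a restriction factor of HIV, had 7, 4 and 13 counts in M-BSG-Hot, 5, 2 and 8 in M-BSG, 5, 2 and 4 in BSG and 8, 15 and 6 in NC. BSG lay below NC, at an adjusted p of 0.281 with no filter.

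ISG15 and its machinery were not called by edgeR in the main analysis. ISG15 had 12.1, 13.3 and 16.2 CPM in M-BSG-Hot, 15.4, 10.5 and 12.5 CPM in M-BSG, 18.8, 13.9 and 11.7 CPM in BSG and 12.4, 11.5 and 13.5 CPM in NC. All groups overlapped NC, and the highest values were again in M-BSG-Hot 3, M-BSG 1 and BSG 1. The log2 fold changes were 0.15, 0.04 and 0.24, with 95% intervals from -0.23 to 0.53, -0.34 to 0.42 and -0.13 to 0.62. UBE2L6, the enzyme that carries ISG15 to its targets, differed by 0.00, -0.08 and 0.07. USP18, which removes ISG15 and dampens receptor signalling, differed by 0.39, 0.25 and 0.24 (edgeR adjusted p = 0.335, 0.569 and 0.437). The ubiquitin ligase TRIM25 had 164, 167 and 159 CPM in M-BSG-Hot, 132, 171 and 160 CPM in M-BSG, 125, 154 and 156 CPM in BSG and 169, 179 and 179 CPM in NC. M-BSG-Hot and BSG lay below NC without overlap. In BSG the log2 fold change was -0.27 (edgeR adjusted p = 0.0898), and TRIM25 was called lower with the replicate block (0.0450), without M-BSG 1 (0.0471) and without M-BSG-Hot 3, M-BSG 1 and BSG 1 together (0.0358). TRIM21, a cytosolic antibody receptor, differed by 0.23, 0.17 and 0.15.

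For antigen presentation, B2M had 408, 440 and 455 CPM in M-BSG-Hot, 477, 396 and 419 CPM in M-BSG, 562, 418 and 450 CPM in BSG and 430, 390 and 391 CPM in NC. BSG 1 was the highest library by a wide margin, and every group overlapped NC. The log2 fold changes were 0.11, 0.09 and 0.24 (edgeR adjusted p = 0.659, 0.719 and 0.145). TAP1, part of the peptide transporter that feeds MHC class I, differed by 0.07, 0.00 and -0.04. IFI16, a nuclear DNA sensor listed here too, had 64.0 ± 5.7 CPM in M-BSG-Hot, 68.6 ± 6.0 CPM in M-BSG, 71.7 ± 6.1 CPM in BSG and 67.5 ± 1.1 CPM in NC.

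Gene length moved with the direction of the members in BSG. The 17 tested members shorter than the median of 3393 bases had a median log2 fold change of 0.10 in BSG against NC, and the 18 others -0.13. Over all genes divided at the same length the medians were 0.12 and -0.10. With the length trend of each library removed, a correction chosen after the data were seen, the members' medians were -0.04 and -0.03. OAS2, IFI44, SP100 and STAT2 were still called in BSG under that correction, and IFIT5 was called as well. In BSG the 17 tested genes with an ISRE core in their promoter had a median of 0.08 and 1 call, IFI44. The 9 without one had a median of 0.06 and 2 calls, SP100 and STAT2. Of all genes tested, 11.7% were called in BSG. The share called among all genes with or without the motif was not computed, so these counts are not read as a result about it. OAS2 is in neither set, because its promoter had no entry.

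M-BSG-Hot and M-BSG, the pair that by name differ in heating, were compared directly. In M-BSG-Hot against M-BSG, 0 of 35 members were called by edgeR, against 0.694% of all genes, and DESeq2 and limma also called 0. At an unadjusted p under 0.05 there were 3, a count given without the share of all genes at that threshold and not read as a result. OAS2 differed by -1.24 on the log2 scale (95% interval -2.35 to -0.13; edgeR adjusted p = 0.491), with no overlap between the libraries. IRF1 had 10.7, 9.96 and 10.3 CPM in M-BSG-Hot against 8.84, 8.45 and 8.97 CPM in M-BSG, a difference of 0.23 (adjusted p = 0.543). PML had 41.2, 37.2 and 40.2 CPM in M-BSG-Hot against 33.7, 35.03 and 34.3 CPM in M-BSG, a difference of 0.20 (adjusted p = 0.532). The interval of 32 of the 35 members lay within 1 of 0.

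In M-BSG against BSG, which carry different material names, 0 of 35 members were called by edgeR, against 0.13% of all genes, and 0 reached an unadjusted p under 0.05. DESeq2 and limma called 0 as well. OAS2 differed by -0.29 (95% interval -1.25 to 0.67), IFI44 by -0.16 (-0.44 to 0.12), SP100 by -0.14 (-0.28 to 0.01) and STAT2 by 0.16 (-0.02 to 0.35). The calls of IFI44, SP100 and STAT2 in BSG alone are therefore not shown to be particular to BSG.

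A list of 84 other genes of the interferon pathway was read beside these targets; 76 were in the tables and 67 were tested. In M-BSG-Hot against NC 3 were called (4.48%, 2 higher and 1 lower), in M-BSG 5 (7.46%, 3 higher and 2 lower) and in BSG 8 (11.9%, 6 higher and 2 lower). These shares, too, were close to those of all genes, 4.91%, 6.35% and 11.7%. The list was chosen with earlier results of these data known, so its shares are a description. The interferon genes in the tables had few counts. IFNL1 and IFNL2 had 1 count each over all libraries, and IFNE, which epithelia of the reproductive tract make constantly, had 146. IFNE differed by -1.06, -1.27 and -0.74 on the log2 scale in M-BSG-Hot, M-BSG and BSG against NC (edgeR adjusted p = 0.257, 0.151 and 0.278), and all M-BSG and BSG libraries lay below all NC libraries. None of the 5 receptor genes tested was called.

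The clearest change in that list was in SOCS3, a feedback inhibitor of cytokine receptors of the interleukin-6 family more than of interferon. It had 8.10, 9.28 and 9.29 CPM in M-BSG-Hot, 12.0, 12.1 and 12.9 CPM in M-BSG, 15.1, 17.5 and 13.996 CPM in BSG and 5.25, 6.75 and 6.57 CPM in NC. No 2 groups overlapped, in the order BSG, M-BSG, M-BSG-Hot, NC. The log2 fold changes were 0.52, 0.99 and 1.32 (edgeR adjusted p = 0.0276, 0.000202 and 1.04e-05). In M-BSG-Hot the adjusted p was 0.0857 without M-BSG-Hot 2, 0.0885 without M-BSG-Hot 3, and 0.122, 0.0528 and 0.0662 without NC 1, NC 2 and NC 3.

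HLA-E, a class I molecule that engages natural killer cells, had 62.6, 61.2 and 69.1 CPM in M-BSG-Hot, 72.3, 67.9 and 66.4 CPM in M-BSG, 74.7, 71.1 and 66.2 CPM in BSG and 55.8, 49.96 and 50.2 CPM in NC. All treated libraries were above all NC libraries, at 0.31, 0.41 and 0.44 on the log2 scale (edgeR adjusted p = 0.0442, 0.00699 and 0.00287). MAVS, the mitochondrial adaptor of the RNA sensors, had 98.8, 87.8 and 86.1 CPM in M-BSG-Hot, 78.0, 99.1 and 95.1 CPM in M-BSG, 73.1, 89.0 and 82.5 CPM in BSG and 116, 123 and 118 CPM in NC. It was lower in all 3 groups without overlap, at -0.39, -0.39 and -0.54 (edgeR adjusted p = 0.0404, 0.0325 and 0.00316). The M-BSG-Hot calls of HLA-E and MAVS and the M-BSG call of MAVS were lost on leaving out any of several single libraries: HLA-E (0.0527 to 0.201) without any library but BSG 1, BSG 3 and M-BSG 1, MAVS in M-BSG-Hot (0.0600 to 0.165) without any NC library, M-BSG-Hot 2, M-BSG-Hot 3, BSG 3 or M-BSG 3, and MAVS in M-BSG (0.0527 to 0.131) without any NC library, M-BSG 1, M-BSG 3 or M-BSG-Hot 2.

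TRIM14, an adaptor that docks on MAVS, was lower in M-BSG (-0.32, edgeR adjusted p = 0.0197) and BSG (-0.39, 0.00421), and stood at -0.25 in M-BSG-Hot (0.0896). In BSG its adjusted p was 0.130 with the length trend removed, and in M-BSG 0.0596 to 0.0856 without any NC library, M-BSG 1 or M-BSG 2. TBK1, the kinase that activates IRF3, was higher in M-BSG (0.46, 0.0185) and BSG (0.41, 0.0244). Its adjusted p was 0.0629 to 0.0865 in M-BSG without NC 1, NC 3, M-BSG 2 or M-BSG 3, and 0.0558 to 0.0905 in BSG without any NC library or BSG 3. In BSG, HLA-B, a classical class I heavy chain, was higher by 0.50 (0.0248), NMI, a partner of STAT factors, by 0.45 (0.0374), and PTPN2, a phosphatase that switches off cytokine receptor signalling, by 0.34 (0.0399). Each of these 3 calls was lost without BSG 1 (adjusted p = 0.0880, 0.146 and 0.136) and without each NC library, HLA-B (0.0695, 0.0596 and 0.107) also without BSG 3 (0.0538). Without each NC library NMI stood at 0.0663, 0.0622 and 0.165 and PTPN2 at 0.0765, 0.139 and 0.132. NMI was also lost without M-BSG 3 (0.0520) and M-BSG-Hot 2 (0.050), and PTPN2 without M-BSG 3 (0.0511) and M-BSG-Hot 2 (0.0504). HLA-B shares sequence with the other class I genes, so its reads may be split among them.

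**Figure D4:**
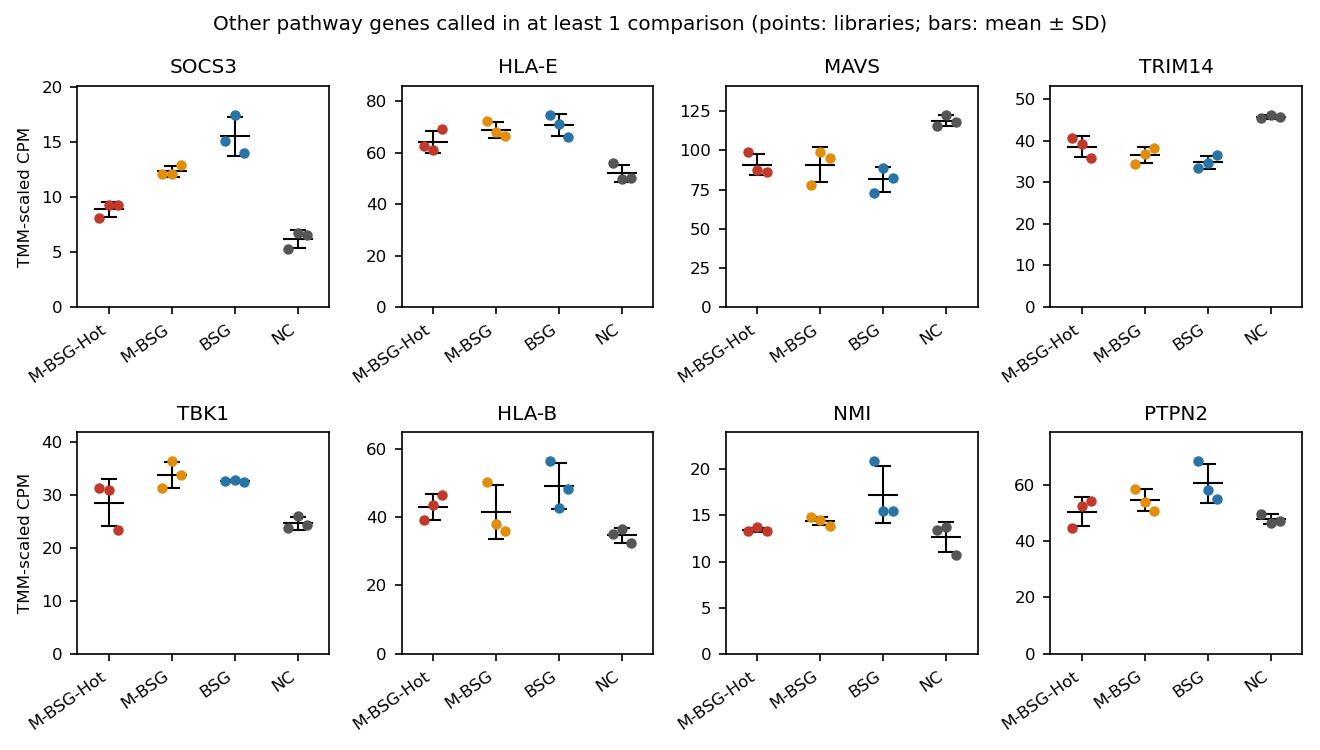
TMM-scaled CPM in each library (points) with mean ± SD over 3 libraries (bars) for the 8 other interferon pathway genes called in at least 1 comparison, groups M-BSG-Hot, M-BSG, BSG and NC from left to right, each panel from 0. SOCS3 is separated in all 4 groups, HLA-E is lowest and MAVS highest in NC.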

How the data were processed

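For each of 12 libraries of 143B cells (4 groups of 3, grouped by the sample titles) the authors deposited whole-number counts per gene symbol and FPKM. Per the labels' protocols, RNA came from an RNeasy Mini Plus kit and libraries from a SMARTER mRNA-Seq kit. The deposited FPKM are the same counts rescaled: 100% of 230445 values above 0 equal the count over gene length and summed counts, within a relative tolerance of 1e-06. No source used here names the aligner, the counting program or the strand setting. Per the submitters' processing notes the builds are GRCm38 and mm10, mouse assemblies, although the symbols are human. The build behind the counts is therefore unresolved, and coordinates come from RefSeq GRCh38.p14 alone.

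The counts were tested with edgeR 4.0.16 (R 4.3.3): TMM factors of 0.951 to 1.05, filterByExpr with a minimum count of 10, and quasi-likelihood dispersion estimated over all 4 groups together. The common biological coefficient of variation was 0.117 and the prior degrees of freedom 5.76. Each of the 3 groups was compared with NC, M-BSG-Hot with M-BSG, and M-BSG with BSG. The SE is the absolute log2 fold change over the square root of the F statistic, and 95% intervals use the t distribution. The script was tested on simulated data. With 3 libraries a group, permuting single genes cannot reach 0.05. Replicate pairs differed by more than sampling noise (chi-square per degree of freedom 3.37 to 60.9), so none were merged.

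Alternatives were DESeq2 1.42.0, limma 3.58.1 on log2(FPKM + 1), other scalings and filters, a replicate block, leaving out libraries and removing a length trend. The members and the lists of pathway and marker genes were chosen with earlier results of these data known. Named are the members called in any comparison, the 6 highest in NC, those under 10 counts, the 8 called pathway genes with the smallest adjusted p, and others where their role is described.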

Additional observations from a re-analysis of the deposited data

How the results depend on the processing

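The counts of called members were recomputed under 21 alternatives, 12 of which leave out 1 library. They are given without the share of all genes called under the same alternative, so they do not set the members against other genes. In BSG against NC the count of 4 ranged from 1 to 5 on leaving out single libraries: it was 1 without NC 3 and 2 without NC 2 or BSG 1. In M-BSG against NC the count of 1 ranged from 1 to 2, and was 2 without BSG 1. It was 0 with limma on log2(FPKM + 1) and 0 with a filter of 50 counts in 3 libraries, which leaves out OAS2. In M-BSG-Hot against NC the count of 1 ranged from 0 to 1, being 0 without any library but M-BSG 2. It was 0 with DESeq2, 0 without a filter, 0 with the replicate block, 0 with the filter of 50 counts, 0 with limma, and 2 with the length trend removed. The other 2 comparisons gave 0 in every alternative that leaves out 1 library. The median log2 fold change of the members in BSG was -0.03 both with the length trend removed and without BSG 1, M-BSG 1 and M-BSG-Hot 3. Over all genes it was -0.002 and -0.02 in these 2 settings. Of the 6 calls of members, 0 passed under every alternative and 0 turned direction. The cause was not tested. Of the 16 calls of other pathway genes, 5 passed under all and 0 turned. The replicate block gave 0 called members in M-BSG-Hot, 1 in M-BSG and 5 in BSG, each against NC. Of 18 pairs of libraries with the same number, 4 correlated above 0.1 in their deviations from the group means. Over the 18 the correlations ran from -0.29 to 0.41, the highest for BSG 1 with M-BSG 1. These values cannot show whether a number marks a shared culture, batch or day, which no label states. Depth limits the genes with few counts, among them IFI44L, MX2, OAS2, BST2, IFI27 and MX1.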
